A study of Mus musculus with 36 samples.

Results

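The messenger RNAs of splicing factors and hnRNP proteins were examined in ducts and surrounding stroma of the fetal mouse mammary gland. Every gene was taken whose symbol in the array's probe-to-gene table begins with Srsf, Hnrnp, Snrp, Sf3a or Sf3b, which gave 52 symbols. The rule uses symbols and no measured value, although it was set with earlier results of these data known. A gene was read at its brightest probe set among those that carry its symbol alone, and 47 of the 52 had such a probe set, of 18194 genes measured in this way. These were 10 SR protein genes, 19 of 21 hnRNP genes, 9 of 12 Snrp genes and all 9 genes of the SF3A and SF3B subunits, together called the splicing genes below. Hnrnpa3, Snrpa, Snrpd1, Snrpd2 and the pseudogene Hnrnpa1l2-ps2 had no probe set of their own and were not read.

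The 36 arrays came from female C57BL/6 fetuses taken on E19, bred from ERα(+/-) dams and sires. Dams received vehicle, 250 ng/kg/d of bisphenol A (BPA), a plastic monomer with weak estrogenic activity, or 10 ng/kg/d of ethinylestradiol (EE2), a synthetic estrogen, by osmotic pump from E8 to E19. Wild type ERα(+/+) fetuses and ERα(-/-) fetuses, which lack estrogen receptor α in all tissues, were compared in each exposure. From the fourth inguinal gland of each fetus, the ducts and a sleeve of about 100 µm of stroma around them were laser-captured separately. This gave 12 groups of 3 arrays: 2 compartments, 2 genotypes and 3 exposures. The stromal sleeve is a mixture of fibroblasts, adipocytes, vessels and blood cells, and every exposed group shares the same pump and vehicle with its controls.

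Introns are removed from pre-mRNA by the spliceosome, which is built from small nuclear ribonucleoproteins (snRNPs) around a ring of Sm proteins, and in which the SF3A and SF3B complexes bring the U2 snRNP to the branch point. SR proteins bind exonic enhancers and recruit the spliceosome, whereas many hnRNP proteins coat nascent transcripts, repress splice sites and also act in transport and decay of mRNA. Cells that grow and divide make much of this machinery, and changes in the balance of SR and hnRNP proteins shift the choice of alternative exons in developing epithelia.

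Promoters are shown for 4 genes that lay among the largest compartment differences and for Hnrnpab, whose brightest probe set had the smallest, although most of its other probe sets were lower in stroma. The sequences are the 250 bases before the annotated start, taken from RefSeq on GRCm38.p6 and written 5′ to 3′ on the strand of the gene. They lie at chr17:29032410-29032659 (+ strand) for Srsf3, chr13:58128557-58128806 (- strand) for Hnrnpa0, chr10:75517792-75518041 (+ strand) for Snrpd3, chr12:4817358-4817607 (+ strand) for Sf3b6 and chr11:51606882-51607131 (- strand) for Hnrnpab. Capitals mark exact matches, on either strand, to the GC box GGGCGG, the CCAAT box CCAAT, the TATA box TATAAA and the ETS-type site CCGGAAG, and adjoining or overlapping matches run together.
Srsf3: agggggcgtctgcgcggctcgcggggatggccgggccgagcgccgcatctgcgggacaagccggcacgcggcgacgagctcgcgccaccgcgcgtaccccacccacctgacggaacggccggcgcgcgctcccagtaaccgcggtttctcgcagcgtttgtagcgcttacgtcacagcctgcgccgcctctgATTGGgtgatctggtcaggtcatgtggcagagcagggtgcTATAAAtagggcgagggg
Hnrnpa0: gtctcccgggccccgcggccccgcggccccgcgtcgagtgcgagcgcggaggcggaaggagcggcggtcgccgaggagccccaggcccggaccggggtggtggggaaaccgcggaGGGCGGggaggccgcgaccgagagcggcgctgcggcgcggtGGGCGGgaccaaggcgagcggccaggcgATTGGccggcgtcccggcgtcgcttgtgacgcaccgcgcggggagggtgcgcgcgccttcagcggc
Snrpd3: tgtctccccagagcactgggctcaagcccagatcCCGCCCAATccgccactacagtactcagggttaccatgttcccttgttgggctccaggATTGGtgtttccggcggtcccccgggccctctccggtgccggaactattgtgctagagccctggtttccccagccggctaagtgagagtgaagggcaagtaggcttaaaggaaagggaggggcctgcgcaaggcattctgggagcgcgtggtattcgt
Sf3b6: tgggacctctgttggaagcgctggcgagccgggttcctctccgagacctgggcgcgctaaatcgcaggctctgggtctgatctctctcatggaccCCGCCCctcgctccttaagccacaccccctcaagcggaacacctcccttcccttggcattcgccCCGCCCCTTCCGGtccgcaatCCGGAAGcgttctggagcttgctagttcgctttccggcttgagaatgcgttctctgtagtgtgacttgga
Hnrnpab: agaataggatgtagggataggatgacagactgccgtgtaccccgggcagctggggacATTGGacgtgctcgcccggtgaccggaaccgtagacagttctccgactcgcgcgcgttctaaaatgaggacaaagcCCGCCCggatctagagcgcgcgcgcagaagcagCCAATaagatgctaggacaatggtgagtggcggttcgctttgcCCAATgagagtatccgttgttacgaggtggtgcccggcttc

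Srsf3 held a TATA box 18 bases and a CCAAT box 58 bases before its start, Hnrnpa0 held 2 GC boxes, Snrpd3 held a GC box overlapping a CCAAT box, and Sf3b6 held 2 GC boxes and 2 ETS-type sites. Promoters were matched for 42 of the 47 splicing genes. A GC box lay in 28 of the 42 (66.7%), against 32.9% of the 27025 promoters in the table and 63% of those of genes with a mean signal of 100 or more. A CCAAT box lay in 20 (47.6%, against 34.5% of all promoters and 36.2% of those of brighter genes). A TATA box lay in 4 (9.52%, against 13% and 6.17%), above the share of brighter genes and below that of all promoters. An ETS-type site lay in 14 (33.3%, against 7.05% of all promoters and 15.2% of those of brighter genes). The Zbtb33 (Kaiso) palindrome was in none, against 0.407% of all promoters. Their median GC content was 60.6%, with a range of 43.2 to 81.2%, against 52% for all promoters. GC boxes lay in 15 of the 23 matched genes that were lower in stroma and in 13 of the 19 others, and ETS-type sites in 7 and in 7, CCAAT boxes in 10 and in 10, and TATA boxes in 4 and in 0. These matches are a description of the letters and do not show binding.

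The arrays differed in brightness and in the tissue they held. Array medians lay between 10.9 and 66.8 and averaged 29.5 ± 9.19 in stroma and 40.5 ± 15.5 in epithelium (SD, n = 18 each). A stromal array of the ERα(+/+) vehicle group, a stromal array of the ERα(+/+) BPA group and an epithelial array of the ERα(+/+) vehicle group had medians under 20. In 5 arrays, 3 stromal and 2 epithelial, all of BPA or EE2 glands, the summed skeletal muscle markers reached 10956.2 to 30010.7, against 46.6 to 1552.5 in the other 31. The signal of Esr1, the deleted gene, was 20.3 to 396.7 in ERα(+/+) stroma and 13.9 to 81.8 in ERα(-/-) stroma. In epithelium it was 1.1 to 142 and 1.6 to 100.2. These ranges overlapped, so Esr1 did not separate the genotypes array by array. The 3′ to 5′ signal ratio of Gapdh, a sign of RNA integrity, ran from 5.09 to 20.8 and averaged 11.9 ± 3.58 in stroma and 8.60 ± 2.50 in epithelium, whereas that of β-actin was 0.605 to 1.44 over all arrays.

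In the values as deposited, the splicing genes were lower in stroma than in ducts. All 47 had a stroma minus epithelium difference below 0 on the log2 scale, with a median of -0.61, against a median of -0.30 over all genes. By class of mean signal, from 64.7% (under 100) to 75.9% (500 to 1000) of all genes lay below 0. In limma with gland as a block and p-values adjusted by Benjamini-Hochberg over all 45101 probe sets, 26 of the 47 were lower in stroma at an adjusted p under 0.05 and 0 were higher. Of all genes, 17.7% were lower by the same rule, and of genes with a mean signal of 100 or more, 26.5%. At an unadjusted p under 0.05, 34 were lower, against 27.6% of all genes. The count was 16 after quantile normalization, against 8.13% of all probe sets, and 2 after each array was centred on its median, against 6.42%, as described below. In the deposited values the share of all probe sets was 16.8%. Many probe sets are dim, and the share among brighter genes was not taken under these scalings. In these bulk captures, fewer cells of a type and less RNA per cell cannot be told apart.

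**Figure D1:**
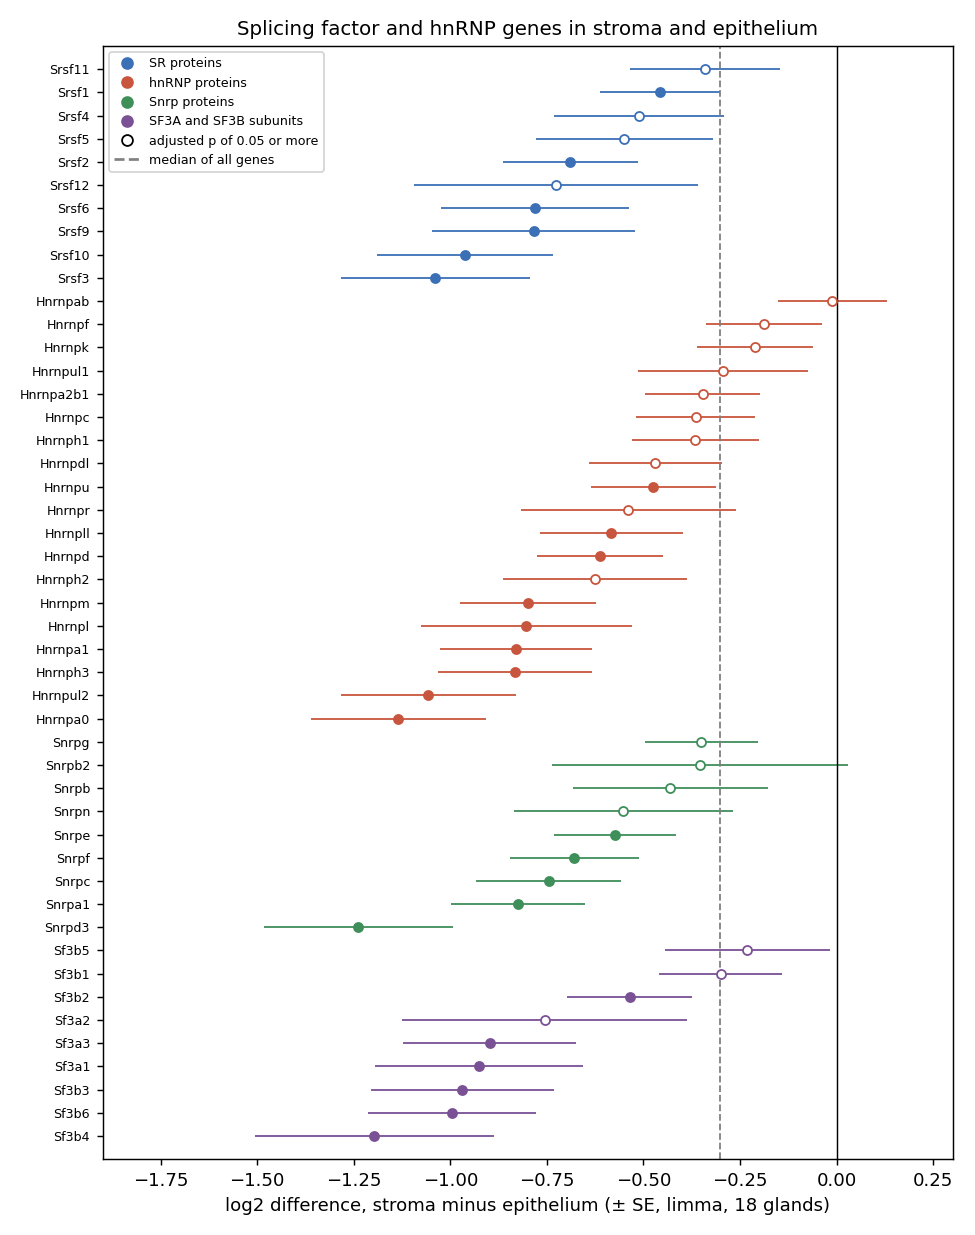
Each point is the log2 difference, stroma minus epithelium, of a splicing gene with its SE (limma, 36 arrays of 18 glands), coloured by family, and filled circles have an adjusted p under 0.05. All 47 points lie below 0 (solid line), and the dashed line marks the median of all genes, -0.30.

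Among the SR proteins, 6 of 10 were lower in stroma, with a median log2 difference of -0.71. Srsf3, a small SR protein that also takes part in mRNA export, had signals of 257.1 to 3013.8 in stroma (median 1433.9, mean 1462 ± 796) and of 1608.4 to 3781.4 in epithelium (median 2516.6, mean 2568 ± 594). The ranges overlapped, but the stromal signal was the lower in 17 of 18 glands, and the difference was -1.04 ± 0.245 (log2, SE; adjusted p = 0.00461). Srsf10, which represses or activates exons depending on its phosphorylation, ran from 236 to 2515.7 in stroma (median 1583.4) and from 1735.7 to 4195.8 in epithelium (median 2600.1), a difference of -0.96 ± 0.228 (adjusted p = 0.00475). The stromal medians of both genes lay below their lowest epithelial array. Srsf2, a component of nuclear speckles, had 902.5 to 2826 in stroma (median 1633.55) and 1712.3 to 3710.2 in epithelium (median 2732.35), and was lower in 17 of 18 glands (-0.69 ± 0.174, adjusted p = 0.00753). Srsf1, the prototype of the family, had 2231.2 to 4605.2 in stroma (median 3740.45) and 4035.5 to 5994.9 in epithelium (median 4790.25), and it differed by -0.46 ± 0.155 (adjusted p = 0.0400). The low end of the epithelial range of Srsf1 lay above the stromal median. The next brightest probe sets of Srsf1 gave -0.36 and -0.38 and did not pass (adjusted p = 0.101 and 0.0829). Of its dimmer ones, those at -1.28, -0.92 and -0.89 passed and that at -0.32 did not. Further probe sets of Srsf2 gave -0.45 (adjusted p = 0.0734), -0.92 (0.00335) and -0.29 (0.320). Srsf6 (-0.78, adjusted p = 0.0265) and Srsf9 (-0.78, adjusted p = 0.0379) were lower too, while Srsf12 (-0.73, adjusted p = 0.169), Srsf5 (-0.55, 0.0926), Srsf4 (-0.51, 0.104) and Srsf11 (-0.34, 0.227) did not pass.

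Among the hnRNP genes, 9 of 19 were lower in stroma, with a median of -0.54. Hnrnpa0, which binds AU-rich elements, had 108.7 to 903.1 in stroma (median 484.3, mean 490 ± 217) and 313.1 to 1733.5 in epithelium (median 934.35, mean 1035 ± 390). The stromal mean was under the epithelial one by more than either SD, and the difference was -1.14 ± 0.226 (adjusted p = 0.00127), with stroma lower in 16 of 18 glands. Hnrnpul2, a relative of the nuclear scaffold protein Hnrnpu, had 27 to 972.1 in stroma (median 493.05) and 168.5 to 1437 in epithelium (median 828.05), a difference of -1.06 ± 0.227 (adjusted p = 0.00232). Hnrnpa1, the best known splicing repressor of the class, had 708.3 to 2915.3 in stroma (median 1611.8) and 1573.7 to 4368.9 in epithelium (median 3232.15) and differed by -0.83 ± 0.197 (adjusted p = 0.00488). Its epithelial median lay above every stromal array. Hnrnph3 (-0.83, adjusted p = 0.00540), of the family that binds runs of G, Hnrnpm (-0.80, 0.00289), Hnrnpl (-0.80, 0.0400), which binds CA repeats, its paralog Hnrnpll (-0.58, 0.0286), Hnrnpd (-0.61, 0.0105), a factor of AU-rich mRNA decay, and Hnrnpu (-0.47, 0.0413) were also lower. The other probe set of Hnrnpll gave -0.23 (adjusted p = 0.518) and was lower in 10 of 18 glands. That of Hnrnpl, of mean signal 59.8, gave 0.058 (adjusted p = 0.956).

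The hnRNP genes that did not pass included several read at probe sets of high signal. Hnrnpa2b1, which sorts RNAs for transport, had 4317.6 to 7486.7 in stroma (median 6470.15) and 6460.4 to 9310.8 in epithelium (median 7510.15). Its stromal signal was the lower in 17 of 18 glands, with a difference of -0.35 (adjusted p = 0.104). Hnrnpk, a poly-C binding protein, had 4494.2 to 7322.4 in stroma (median 5700.75) and 4569.2 to 8524.4 in epithelium (median 6856.35), a difference of -0.21 (adjusted p = 0.340). Hnrnpab, an abundant RNA-binding protein, had 13548.1 to 16829.3 in stroma (median 15336) and 14394.2 to 16844.9 in epithelium (median 15207.6). These 36 values nearly coincided, with a difference of -0.01 ± 0.141 (adjusted p = 0.966). That probe set averaged 15373, near the array maxima of 22558.4 to 25770.4, and 5 of the 6 other probe sets of Hnrnpab, of mean signal 273 to 3008, were lower in stroma, by -0.64 to -1.18. The other probe sets of Hnrnpf gave -0.36, -0.75 and -0.89 against -0.19 at its brightest, and the last 2 of these 3 passed. How far the brightest spots were compressed was not tested. Hnrnpa2b1 had 4 probe sets at -0.08 to -0.36, of which 0 passed in this fit. At their brightest probe sets, Hnrnpa2b1 and Hnrnpk were lower in stroma when the fit allowed an intensity trend, as given below.

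Among the Snrp genes, 5 of 9 were lower, with a median of -0.57. Snrpd3, a Sm ring protein, had the largest difference of all splicing genes, with 57.3 to 1676.5 in stroma (median 566, mean 701 ± 426) and 687 to 2142.9 in epithelium (median 1412.85, mean 1398 ± 410). The stromal signal was the lower in 17 of 18 glands, and the lowest, 57.3, stood far below the next stromal arrays. The difference was -1.24 ± 0.245 (adjusted p = 0.00121). Snrpa1, a U2 snRNP protein, had 806.7 to 3328.5 in stroma (median 1753.85) and 1715.8 to 5078.2 in epithelium (median 2733.7), a difference of -0.82 ± 0.174 (adjusted p = 0.00204). The U1 protein Snrpc (-0.75, adjusted p = 0.00745) and the Sm proteins Snrpf (-0.68, 0.00612) and Snrpe (-0.57, 0.0133) were lower in at least 16 of 18 glands each. Snrpg (-0.35, adjusted p = 0.0954), Snrpb (-0.43, 0.239) and Snrpb2 (-0.35, 0.553) did not pass. Snrpb, the gene of the Sm proteins B and B′, ran from 381.4 to 3819.6 in stroma and from 772.4 to 3812.5 in epithelium, so that both compartments covered largely the same span. Snrpn, an imprinted Sm gene typical of neurons, was read at its 1 single-symbol probe set. That probe set was dim throughout, at 3.1 to 37.7 in stroma and 8.8 to 52.3 in epithelium (-0.55, adjusted p = 0.175). The 6 probe sets that carry Snrpn among several symbols were not used, so the level of the gene is not settled by this reading.

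Among the SF3A and SF3B subunits, 6 of 9 were lower, with a median of -0.90. Sf3b4, which contacts the pre-mRNA upstream of the branch point, had 7.5 to 311.6 in stroma (median 112.5) and 105.2 to 501.8 in epithelium (median 257.6), a difference of -1.20 ± 0.310 (adjusted p = 0.00886). Sf3b6, which lies at the branch-point adenosine, had 76.6 to 573.1 in stroma (median 237.85) and 294.3 to 1153.2 in epithelium (median 401.4). Sf3b6 was lower in stroma in all 18 glands, by -0.996 ± 0.218 (adjusted p = 0.00268). Sf3a3 had 74.3 to 1999.5 in stroma (median 1011.1) and 401.6 to 3072.4 in epithelium (median 1829.9), a difference of -0.90 ± 0.224 (adjusted p = 0.00676). Sf3b3 (-0.97, adjusted p = 0.00608), Sf3a1 (-0.93, 0.0174) and Sf3b2 (-0.54, 0.0224) were lower as well. The other probe sets of Sf3a1, Sf3a3, Sf3b3 and Sf3b4, of mean signal 11.1 to 251, gave -0.39 to -1.29 and did not pass. Some of the other probe sets of Sf3b2 and Sf3b6 passed and some did not. Sf3b1, the scaffold of the complex and a frequent target of mutation in leukaemia, had 1636.4 to 3972.6 in stroma (median 3098.8) and 2798.3 to 5078.5 in epithelium (median 3776.8), and its difference of -0.30 (adjusted p = 0.192) did not pass. Sf3a2 (-0.76, adjusted p = 0.153) and Sf3b5 (-0.23, 0.481), the latter lower in 9 of 18 glands, did not pass either.

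**Figure D2:**
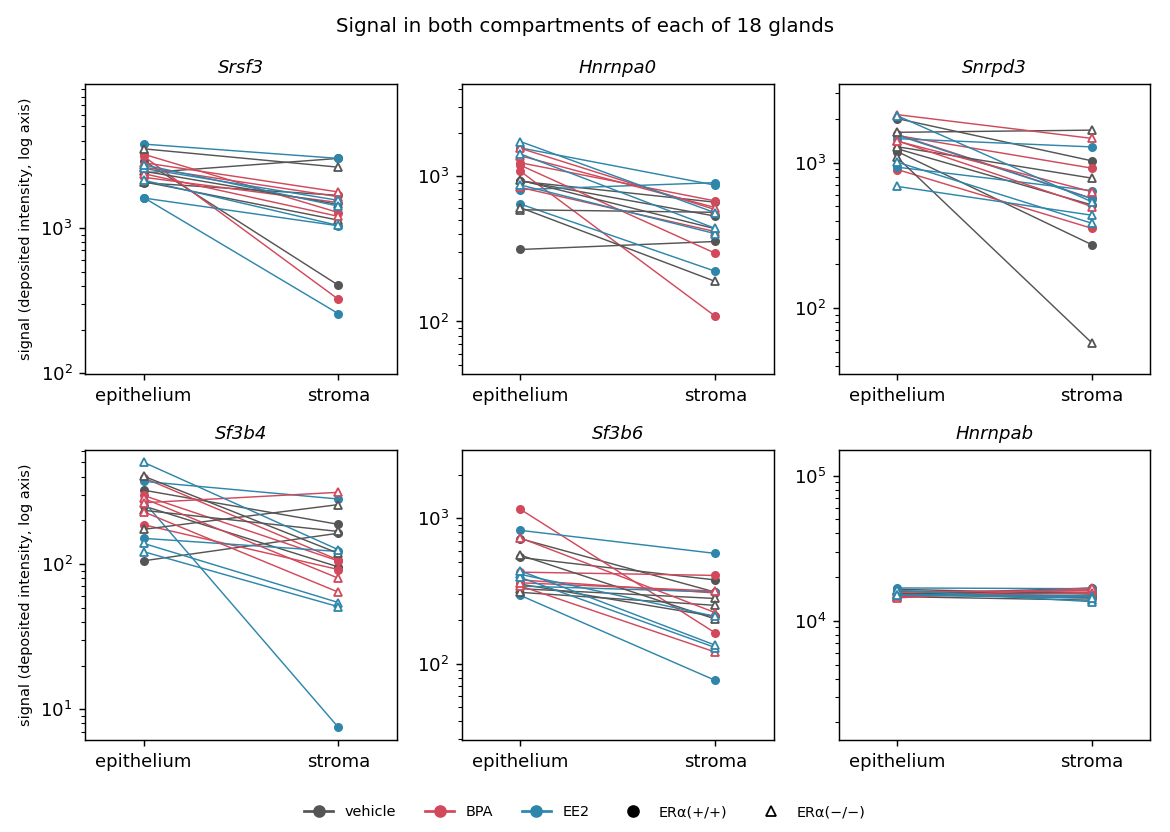
Each line joins the epithelial and the stromal signal of the same gland (deposited intensity, log axis) for 6 splicing genes, with colours for the exposure and filled or open symbols for the genotype. Most lines fall toward stroma for Srsf3, Hnrnpa0, Snrpd3, Sf3b4 and Sf3b6, a few stromal arrays lie far below the rest, and the lines of Hnrnpab are flat at 13548.1 to 16844.9.

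The size of the shift depended on how the arrays were scaled. After quantile normalization 16 of 47 splicing genes (34.0%) were lower, all of them among the 26, and 46 lay below 0, the exception being Sf3b5 (0.14). Their median was then -0.40, with all genes at 0.04. After centring each array on its median 2 of 47 (4.26%) were lower, Hnrnpa0 and Snrpd3, a smaller share than that of all probe sets, and 35 lay below 0, with a median of -0.20 against 0.11 for all genes. All 4 families kept a median below 0 under both scalings, at -0.33 to -0.47 and at -0.13 to -0.49. Centring moves the difference of every gene by the same amount, so the gap of 0.31 between the members' median and that of all genes is the same as in the deposited values by construction.

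**Figure D3:**
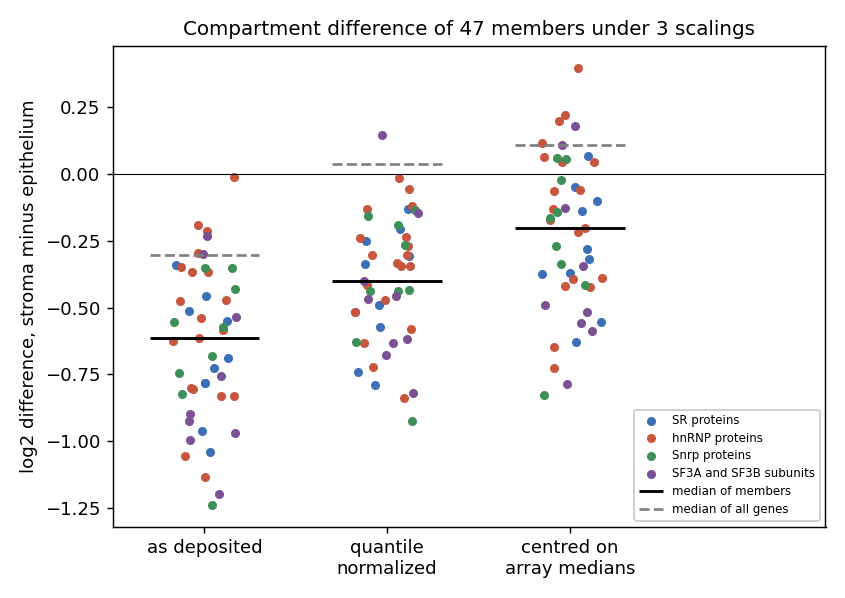
Each point is the log2 stroma minus epithelium difference of a splicing gene under 3 scalings of the arrays, coloured by family. The members' median (solid bar) lies at -0.61, -0.40 and -0.20, and that of all genes (dashed bar) at -0.30, 0.04 and 0.11.

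The shift was also read in other ways. Of the 92 further single-symbol probe sets of these genes, 46 were lower in stroma, against 16.8% of all probe sets, and 0 were higher, and among the 74 of these with a mean signal of 100 or more, 72 had a difference below 0. In the signal classes from 100 upward, 66.8% to 75.9% of all genes lay below 0. Of the 16 splicing genes with a mean signal of 1000 to 3000, 12 (75%) were lower, against 28.3% of all genes in that range. Of the 11 at 500 to 1000, 6 (54.5%) were lower, against 28.8%. Of the 13 at 3000 or more, 4 (30.8%) were lower, against 14.6%. Across the 47 genes, which share the same arrays, Spearman's rho between the mean signal and the log2 difference was 0.52, so that the brighter probe sets had the smaller differences.

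Within single glands, 32 of the 47 (68.1%) were lower in stroma in at least 15 of 18 glands, against 15.9% of all genes and 26.5% of genes with a mean signal of 100 or more. The median over the splicing genes lay below 0 in 17 of 18 glands and below the median of all genes in 16 of 18. The exceptions to the latter were an ERα(-/-) BPA gland and an ERα(-/-) EE2 gland, by 0.01 and 0.04. By group, the median ran from -0.25 in the ERα(+/+) vehicle glands, with all genes at 0.04, to -0.98 in the ERα(+/+) BPA glands, with all genes at -0.58. The number of the 47 genes below 0 was 37 in ERα(+/+) vehicle glands, 43 in ERα(+/+) EE2 glands, 44 in ERα(-/-) vehicle glands, 46 in ERα(-/-) BPA and in ERα(-/-) EE2 glands and 47 in ERα(+/+) BPA glands. Of all genes, 48.4%, 54.3%, 55.2%, 69.2%, 75.2% and 72.4% lay below 0 in these groups, in the same order. Whether the exposures differed in this was tested gene by gene, as given below.

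**Figure D4:**
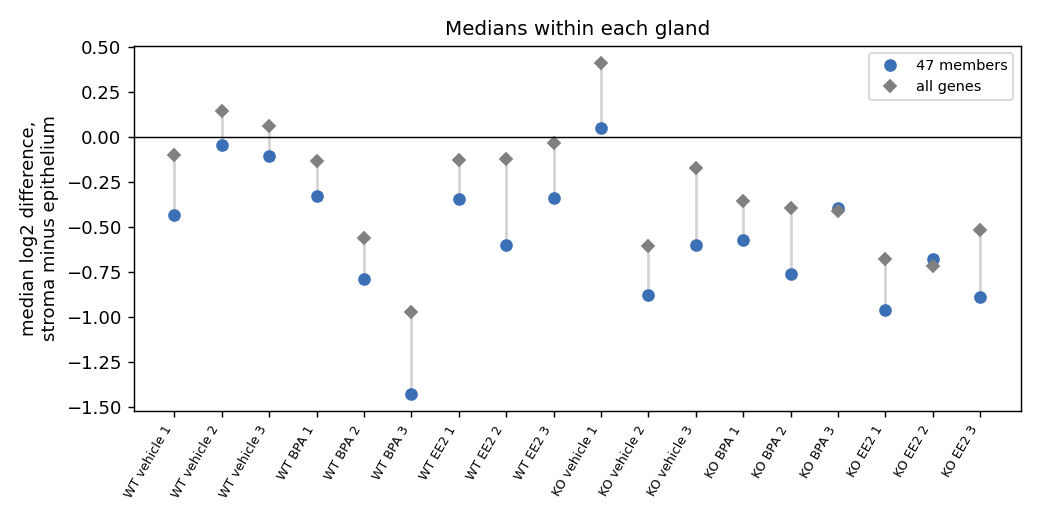
For each of the 18 glands, the circle is the median log2 stroma minus epithelium difference of the 47 splicing genes and the diamond that of all genes (WT is ERα(+/+), KO is ERα(-/-), and the number is the replicate). The circle lies below the diamond in 16 of 18 glands and below 0 in 17.

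The median SD of the log2 signal within groups was 0.60 for the splicing genes, against 1.18 for all genes and 0.93 for genes with a mean signal of 100 or more. These sets were not matched for brightness. Of the 8145 genes with a mean signal of 100 or more, 5328 lay at 100 to 500, against 5 of the 47. Stroma was the more variable compartment, with 0.67 against 0.47 in epithelium, and 38 of 47 genes had the larger SD there, as had 5543 of the 8145 genes with a mean signal of 100 or more (median SDs 0.96 and 0.78). The SD ran from 0.08 for Hnrnpab, of mean signal 15373, to 1.35 for Srsf12, of mean signal 26.1. The low stromal values came from few arrays. The ERα(+/+) BPA array with a median signal of 14.6 was the lowest of 18 stromal arrays for 14 genes, an ERα(-/-) vehicle array for 10, and an ERα(+/+) EE2 array with muscle markers at 30010.7 for 7. In epithelium the ERα(+/+) vehicle array with a median signal of 10.9 was the lowest for 16 genes, and an ERα(+/+) EE2 array with a median signal of 27.2 for 13. With the 3 arrays under a median of 20 left out, 26 genes were lower in stroma, against 16.4% of all probe sets. With the 5 arrays rich in muscle markers left out, 17 were lower, against 12.5%, with a median of -0.56 over 15 glands. When the glands were left out in turn, 20 of the 26 calls held throughout. Srsf6 was lost without the second ERα(-/-) vehicle gland alone and Hnrnpll without the second ERα(+/+) EE2 or the second ERα(-/-) BPA gland. Hnrnpl, Srsf1, Srsf9 and Hnrnpu, whose adjusted p lay between 0.0379 and 0.0413, were lost without any of 10, 11, 11 and 12 of the 18 glands, respectively.

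Other genes of the splicing pathway were read beside the 17.7% of all genes, and the 26.5% of genes with a mean signal of 100 or more, that were lower in stroma. Of 69 spliceosome proteins outside these families, 29 were lower in stroma and 0 higher, with a median of -0.61. Phf5a, an SF3B partner, was lower by -1.29 (adjusted p = 0.0004), the U5 protein Txnl4a by -1.03 and the tri-snRNP protein Prpf31 by -1.18. Of 15 genes of snRNP assembly, 7 were lower and 0 higher, with a median of -0.92, among them Gemin8 (-2.40, adjusted p = 0.000406), Phax (-1.46), the export adaptor of snRNAs, and Wdr77 (-1.20), a partner of the Sm methyltransferase. Of 36 other splicing regulators, 15 were lower and 2 higher, with a median of -0.45. Esrp1, the epithelial splicing regulator, averaged 43.6 in stroma and 823 in epithelium (-5.16 ± 0.432, adjusted p = 9.88e-08), and the 2 that were higher were Nova1 (2.07, adjusted p = 0.00845) and Nova2 (1.38, adjusted p = 0.00636), known from neurons. Of 9 SR protein kinases and import factors, Srpk1 was lower (-0.70, adjusted p = 0.0301) and Srpk3, known from muscle, was higher (1.88, adjusted p = 0.0315).

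The compartments differed in their cells as labelled. All 7 epithelial markers were lower in stroma, and their summed signal was 370.2 to 4112.1 there against 8268.9 to 16544 in epithelium. All 6 fibroblast, all 4 adipocyte and all 5 endothelial markers were higher in stroma, as were 4 of 5 leukocyte and 2 of 3 erythroid markers. The summed fibroblast markers ranged from 27357.6 to 43597.5 in stroma and from 7378.5 to 28531.6 in epithelium, so that some epithelial arrays held fibroblast signal. Of the 5 proliferation markers, 4 were lower in stroma, by -0.42 for Mki67, -0.84 for Cdk1, -0.90 for Pcna and -1.18 for Top2a, and their sum was 4751.9 to 11712.5 there against 8042 to 15512.7 in epithelium. Of 7 skeletal muscle markers 0 passed, of 6 neuronal ones Gap43 was higher (2.08), and of 3 Schwann cell markers Sox10 was lower (-2.93). The part of cell division, of cell makeup, of array brightness or of RNA integrity in the difference of the splicing genes was not tested.

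In the epithelium, no splicing gene passed the test in any comparison of exposures or genotypes. For BPA against vehicle 0 of 47 passed in limma, against 0% of all genes, and 5 reached an unadjusted p under 0.05, all of them higher, against 15.9% of all genes. Srsf9 had 699.4, 418.5, 350.8, 530.9, 691.8 and 339.3 in the vehicle arrays and 928.8, 1000.7, 716.7, 682.8, 1467.7 and 910.6 in the BPA arrays. A single BPA array, at 682.8, lay within the vehicle range, and the difference was 0.93 ± 0.352 (adjusted p = 0.231). Hnrnpa1 had 3088.4, 1573.7, 1676.6, 2617.9, 2718.2 and 1782 in the vehicle arrays and 3274.7, 3602.3, 3560.7, 3189.6, 4368.9 and 3809.3 in the BPA arrays. These did not overlap, with means of 2243 ± 642 and 3634 ± 425, yet the difference of 0.74 ± 0.318 did not pass (adjusted p = 0.259). Hnrnpm differed by 0.83 (adjusted p = 0.245). Median centring moved all genes alike, from a median of 0.61 to -0.29, and so turned Hnrnpa1 to -0.16 and Hnrnpm to -0.077. The median of the splicing genes was 0.25, below the 0.61 of all genes, and the count of 5 fell to 1 without the arrays under a median of 20. It was 0 after quantile normalization, and after median centring 0 were higher and 4 lower. In the same contrast the endothelial markers had a median of 2.56, with 3 of 5 at an unadjusted p under 0.05, and the Gapdh ratio was 7.19 ± 1.61 under BPA against 10.6 ± 1.77 under vehicle, while that of β-actin was 1.07 ± 0.0458 and 0.973 ± 0.123. Their part was not tested.

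For EE2 against vehicle in the epithelium 0 of 47 passed, against 0% of all genes, and the median was 0.13, with all genes at 0.35. Srsf9, an SR protein that acts on exonic enhancers, was the single gene at an unadjusted p under 0.05, against 8.13% of all genes. Its EE2 arrays had 1232.2, 891.4, 778.7, 1339.7, 940 and 1752.2, all above the highest vehicle array at 699.4. The difference was 1.20 ± 0.352, with an adjusted p of 0.438. Hnrnpul2 (0.95) and Hnrnpa1 (0.60) followed. The BPA and EE2 comparisons share their 6 vehicle arrays, and the vehicle values of Srsf9 therefore enter both.

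Between BPA and EE2 in the epithelium 0 of 47 passed, against 0% of all genes, with a median of 0.15 and all genes at 0.25. Sf3a2, a subunit of SF3A, was the single gene at an unadjusted p under 0.05, against 3.63% of all genes. Its 3 ERα(+/+) EE2 arrays had 145.9, 190.2 and 592.3, and its 3 ERα(+/+) BPA arrays 1152.4, 1959.1 and 1631.4. In ERα(-/-) glands the EE2 arrays had 723.9, 547.9 and 1211.3 and the BPA arrays 756.8, 945 and 1074.1. The separation was thus seen in ERα(+/+) glands, whereas the ERα(-/-) arrays overlapped, and whether BPA and EE2 differed by genotype was not tested. Over both genotypes the difference was 1.41 ± 0.515 and did not pass. Between genotypes in the epithelium 0 of 47 passed, against 0% of all genes, and 0 reached an unadjusted p under 0.05, against 6.96% of all genes. The median was 0.06, with all genes at 0.34, and the smallest p belonged to Srsf11 (0.57 ± 0.309, adjusted p = 0.633), a U2AF-associated SR protein.

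In the stroma, 0 of 47 passed for BPA against vehicle, against 0% of all genes, with a median of -0.05 and all genes at 0.14. Snrpb was the single gene at an unadjusted p under 0.05, against 4.07% of all genes. Its vehicle arrays had 696.5, 1340.6, 2704.3, 1554.6, 3819.6 and 2769.1, its BPA arrays 765.1, 942.4, 381.4, 919.2, 385.1 and 1326.1, and its EE2 arrays 889, 624.8, 1998.8, 736.8, 395.6 and 1387.1. The vehicle group spread most and overlapped both others. The BPA difference was -1.39 ± 0.534 (adjusted p = 0.993), and the EE2 difference was -1.09. For EE2 against vehicle 0 of 47 passed, against 0% of all genes, with a median of -0.06 and all genes at 0.01, and 1 reached an unadjusted p under 0.05, against 4.14% of all genes. This gene, Hnrnpm, which regulates exons in epithelial to mesenchymal transition, ran from 262.6 to 661.4 in vehicle and from 579.8 to 1509.9 in EE2 stroma. These groups overlapped, with a difference of 1.11 ± 0.458 (adjusted p = 0.996). In the same contrast the skeletal muscle markers had a median of 3.44, and their part was not tested. Between BPA and EE2 in stroma 0 of 47 passed, against 0% of all genes, and 0 reached an unadjusted p under 0.05, against 2.94% of all genes, with a median of 0.03 and all genes at 0.12.

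Between ERα(-/-) and ERα(+/+) stroma 0 of 47 passed, against 0.0055% of all genes, which is 1 gene. The median was -0.02, with all genes at 0.14. Sf3a1, the large subunit of SF3A, ran from 22.5 to 198.9 in ERα(+/+) stroma and from 63.6 to 377.5 in ERα(-/-) stroma. The groups overlapped (means 77.1 ± 59.3 and 155 ± 99.2, n = 9 each), and the difference of 1.15 ± 0.507 was the single one at an unadjusted p under 0.05, against 3.28% of all genes.

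**Figure D5:**
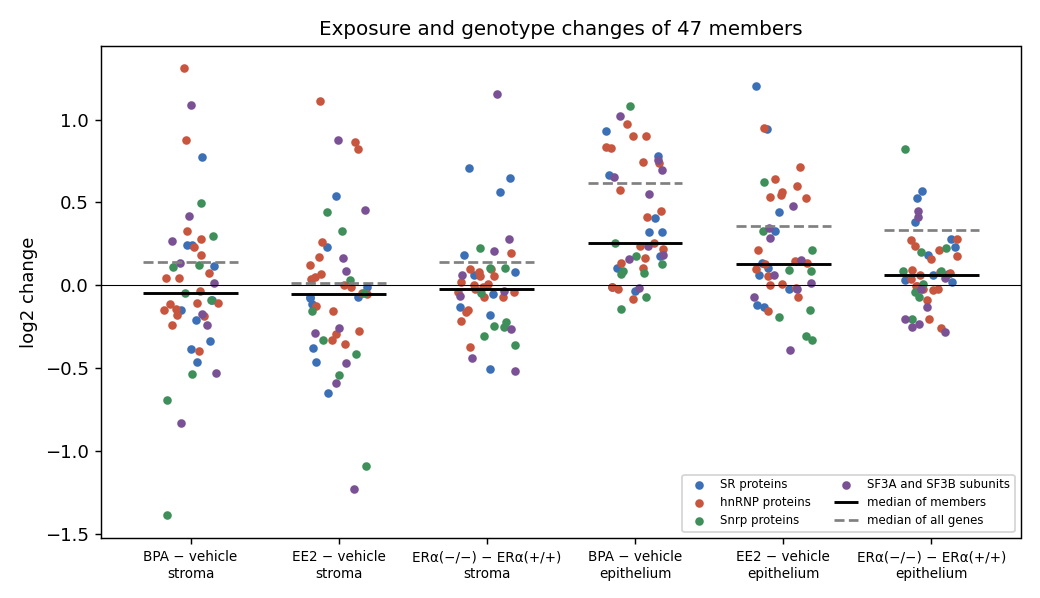
Each point is the log2 change of a splicing gene in 6 comparisons of exposure or genotype, coloured by family, with solid bars for the median of the 47 and dashed bars for that of all genes. None of these changes passed the test, and in the epithelium the members' medians (0.25, 0.13 and 0.06) lie below those of all genes (0.61, 0.35 and 0.34).

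Whether the exposures acted differently by genotype or compartment was tested with interaction terms, and 0 of 47 passed in each of these 6 tests, against 0% of all genes. For the BPA effect in stroma, ERα(-/-) minus ERα(+/+), the median was 0.47 with all genes at 0.45, and 1 splicing gene reached an unadjusted p under 0.05, against 3.36% of all genes. This was Sf3a2, at 3.35 ± 1.33. Its stromal ERα(+/+) arrays had 775.1, 1557.8 and 1063.4 under vehicle and 582.9, 68.2 and 177.5 under BPA. Its stromal ERα(-/-) arrays had 975.1, 93.6 and 254.6 under vehicle and 1247.7, 489.8 and 221.1 under BPA. The ERα(+/+) values separated by exposure and the ERα(-/-) values overlapped, in 3 arrays each. For the EE2 effect in stroma by genotype the median was 0.09 with all genes at -0.05, and 0 reached an unadjusted p under 0.05, against 3.36%.

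In the epithelium, the BPA effect by genotype had a median of -0.03 with all genes at 0.09, and 0 splicing genes reached an unadjusted p under 0.05, against 2.99% of all genes. For the EE2 effect by genotype the median was 0.10 with all genes at 0.31, and Sf3a2 alone reached an unadjusted p under 0.05 (2.88 ± 1.03, adjusted p = 0.772), against 4.62% of all genes. The BPA effect, epithelium minus stroma, had a median of 0.35 with all genes at 0.46. Here 2 splicing genes reached an unadjusted p under 0.05, against 6.87% of all genes: Sf3a2 (1.85 ± 0.731, adjusted p = 0.606) and Snrpb (1.46 ± 0.588, adjusted p = 0.612). The EE2 effect, epithelium minus stroma, had a median of 0.24 with all genes at 0.33 and 0 splicing genes at an unadjusted p under 0.05, against 6.45%, with the smallest p for Srsf9 (1.31 ± 0.627, adjusted p = 0.672).

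For the well known members Srsf1, Srsf2, Srsf3, Hnrnpa1, Hnrnpa2b1, Hnrnpk, Hnrnpu, Snrpb, Snrpn, Sf3a1 and Sf3b1, the BPA differences ran from -1.39 (Snrpb) to 0.27 (Sf3a1) in stroma and from -0.07 (Snrpn) to 0.76 (Sf3a1) in epithelium. EE2 differences ran from -1.09 (Snrpb) to 0.09 (Sf3b1) in stroma and from -0.33 (Snrpn) to 0.60 (Hnrnpa1) in epithelium. Genotype differences ran from -0.36 (Snrpn) to 1.15 (Sf3a1) in stroma and from -0.07 (Snrpb) to 0.41 (Sf3a1) in epithelium. The values of Snrpn are those of its dim single-symbol probe set. None passed, and the largest of these stromal differences, of Snrpb under BPA and of Sf3a1 between genotypes, carried SEs of 0.534 and 0.507. Of 129 other genes of the pathway, 0 passed in these 14 comparisons, and at an unadjusted p under 0.05, 13 were higher under BPA in the epithelium, against 15.5% of all genes, and 10 under EE2, against 7.43%.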

How the data were processed

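Laser-captured stroma and epithelium of 18 fetal glands were measured on 36 Affymetrix Mouse 430 2.0 arrays after whole-transcriptome amplification. The deposited intensity values are on a linear scale. The authors' methods name RMA and a log transformation and the labels name GCOS, and the scaling between arrays is not stated, so differences in array brightness may remain in them. Values were raised to a floor of 0.1 and log2-transformed, and tested with limma 3.58.1 in R 4.3.3, with Benjamini-Hochberg adjustment over 45101 probe sets and calls at an adjusted p under 0.05. Groups came from the labels. Compartments and their interactions with exposure were fitted over 36 arrays with gland as a block, and other comparisons over the 18 arrays of a compartment. The methods state that 1 gland gave both compartments. Arrays of a group with the same replicate number were taken as a gland, which is an assumption, and such arrays deviated together with a mean correlation of 0.0774, over 0.1 in 7 of 18 pairs. In 14 of 18 pairs the stromal array correlated more with the epithelial array of its own number than with the others of its group. The labels call the 3 samples of a group biological replicates, and fetuses of both genotypes may share litters. The 6 arrays of an exposure in a compartment may thus come from as few as 3 dams. They were fitted as independent, so the SEs and p-values of the exposure comparisons may be too small. Arrays of both genotypes with the same exposure and replicate number deviated together with a mean correlation of 0.0025 in stroma and 0.031 in epithelium. It was over 0.1 in 0 of 9 pairs in each compartment, so whether these numbers mark litters is not known.

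The probe-to-gene table gave 1 symbol to 34958 probe sets, several to 932 and none to 9211, and probe sets with several symbols were not used for genes. Named in each comparison were the 11 measured genes of a list of 12 well known members, the called members, and otherwise the 3 with the smallest p. Members, other pathway genes and cell type markers were chosen with earlier results of these data known. Promoters came from a RefSeq table of GRCm38.p6. Alternatives were quantile normalization, median centring, an offset of 16, a filter at a mean signal of 50, array weights, an intensity trend, fits with or without the block or with only the groups compared, means over probe sets, the methods' t-test and leaving out each array. Leaving out the 3 dim arrays and the 5 arrays rich in muscle markers was chosen after seeing the data. The script was tested on simulated data. The number of arrays limits the precision.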

Additional observations from a re-analysis of the deposited data

Results flagged for a closer look

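In groups of 6 or 9 arrays, 58 sets of values of named members were searched for a highest or lowest array standing apart, and 4 were found, where chance gives about 1 in 20. Hnrnpul2 under BPA in stroma had a lowest value of 149.4, in the dim ERα(+/+) array, with the next at 517.5. Hnrnpm under vehicle in epithelium had a lowest value of 425.2, with the next at 902.3, and Srsf11 in ERα(+/+) epithelium had 568.1, with the next at 1124.8. Both came from the ERα(+/+) vehicle array with a median signal of 10.9. Hnrnpl under BPA in epithelium had a highest value of 2829.7, in an ERα(+/+) array, with the next at 1218.5. Thus 3 of the 4 values lay in arrays with a median signal under 20.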

How the results depend on the processing

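Of the 26 splicing genes lower in stroma, 16 were lower after quantile normalization, 2 after median centring, 17 with the 5 arrays rich in muscle markers left out and 24 with the 3 dim arrays left out, where Hnrnpl and Srsf1 were lost and Hnrnpr and Snrpb2 gained. Of all probe sets, 8.13%, 6.42%, 12.5% and 16.4% were lower in these fits, in the same order. The methods' t-test with a 2-fold limit gave 5, also after Benjamini-Hochberg, where it called 19.96% of all genes before adjustment in either direction. Leaving out an array drops its gland from this comparison, so these fits repeat those without single glands given above. They gave 21 to 28, and 20 genes passed in all of them. Without the gland block 24 passed, against 13.2% of all probe sets, with Hnrnpl and Hnrnpll lost. An offset of 16 gave 35, against 20.2% of all probe sets, array weights 31, against 21.7%, and a trend 37, against 18.6%. The filter gave 34 of the 45 splicing genes it kept, against 33.5% of its 21300 probe sets. Each of the offset, the filter and the trend added Hnrnpa2b1, Hnrnpc, Hnrnpdl, Hnrnph1, Hnrnph2, Snrpg, Srsf4 and Srsf5. The offset and the trend also added Sf3b1, and the trend also added Hnrnpf and Hnrnpk. Whether these genes pass thus depended on the fit. Means over probe sets gave 32, against 23.4% of genes. In the other 14 comparisons 0 passed in limma under every alternative run. For genotype these included a block of exposure and replicate number, which would stand for litters if the numbers match. For exposures and their interactions with genotype the block was the replicate number alone, which cannot stand for litters, as each dam had a single exposure. The compartment interactions had no such block. The methods' t-test, unadjusted and at 2-fold, called 1 gene each in ERα(-/-) against ERα(+/+) stroma (Sf3a1), BPA (Snrpb) and EE2 (Hnrnpm) against vehicle in stroma, EE2 against vehicle in epithelium (Srsf9) and BPA against EE2 in epithelium (Sf3a2), where it called 2.29% to 3.97% of all genes.

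Median centring shifted every gene's compartment difference alike, and turned it to 0.060 for Snrpg, 0.045 for Hnrnpc, 0.063 for Hnrnpa2b1, 0.045 for Hnrnph1, 0.11 for Sf3b1, 0.069 for Srsf11, 0.20 for Hnrnpk, 0.12 for Hnrnpul1, 0.22 for Hnrnpf, 0.18 for Sf3b5, 0.057 for Snrpb2 and 0.40 for Hnrnpab, none of them called. Sf3b5 was at 0.14 after quantile normalization. The other reversals also concerned differences that did not pass. Sf3a1 under BPA in stroma was -0.021 after quantile normalization, -0.001191 after centring and -0.028 as a mean over probe sets. Sf3b1 under EE2 in stroma was -0.060 as a mean over probe sets and -0.024 without the dim arrays. Between genotypes in epithelium, Sf3a1 was -0.10 after centring and Snrpb 0.070 as a mean over probe sets. Under BPA in epithelium, centring gave -0.077 for Hnrnpm, -0.16 for Hnrnpa1 and -0.15 for Sf3a1, and Snrpn was 0.085 without the muscle-rich arrays. For BPA against EE2 in epithelium, means over probe sets gave -0.37 for Sf3a1 and 0.14 for Srsf1. In the interaction tests Sf3b1 was -0.12 after centring and -0.013 as a mean for the BPA effect by genotype in epithelium, -0.21 after centring for the EE2 effect by genotype in epithelium, and 0.23 as a mean for the EE2 effect by compartment. Hnrnpa2b1 was -0.022 after quantile normalization and -0.54 after centring for the BPA effect by compartment. Leaving out single arrays ranged from -0.026 to 0.0028 for the compartment difference of Hnrnpab, from -0.093 to 0.69 for Sf3a1 under BPA in stroma, from -0.024 to 0.16 for Sf3b1 under EE2 in stroma, from -0.28 to 0.12 for Snrpb between genotypes in epithelium, from -0.26 to 0.16 for Snrpn under BPA in epithelium, from -0.023 to 0.19 for Hnrnpa2b1 in the BPA effect by compartment and from -0.19 to 0.050 for Sf3b1 in the EE2 effect by compartment. The cause of these changes was not tested. Brightness differs several-fold between arrays as deposited, so which scaling is right is not known. The probe sets read for Snrpn and Srsf12 were dim on most arrays.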
